A study of Drosophila melanogaster with 78 samples.

Results

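The proteasome subunit genes of Drosophila melanogaster were followed through 78 arrays of whole embryos at stage 15. The members are the genes whose current symbol starts with Prosalpha, Prosbeta, Rpn or Rpt followed by a digit. Of the 48 such genes in the RefSeq gene table, 39 had a probe set of their own on the array, among 10844 named genes in all. These 39 genes had 41 probe sets, and for Prosbeta6 and Prosalpha7, with several probe sets each, the one with the highest mean stands for the gene. They comprise 26 canonical subunits (6 alpha, 6 beta, 4 Rpt and 10 Rpn genes) and 13 paralogs, whose symbols carry a letter after the number. Prosbeta1, Prosbeta5R2, Rpt1, Rpt6, Rpt6R, Rpn9 and Rpn10 had no probe set named for them, and Prosalpha1 and Prosalpha1R shared one, so these 9 genes were not analysed as members.

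The proteasome degrades proteins tagged with ubiquitin. Its core particle is a barrel of stacked rings, in which alpha subunits form the outer rings and the gate, and beta subunits form the inner rings that hold the proteolytic sites. The regulatory particle caps the barrel: Rpt subunits are ATPases that unfold the substrate and feed it into the core, and Rpn subunits bind ubiquitin chains, remove them or hold the particle together. In flies, several paralogs are known for expression in the male germline.

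The embryos belonged to 18 groups of 4 or 5 arrays, named in the labels as WT, slit, slit/WT, robo, robo/WT, robo2, robo12, slit.robo, comm, comm/WT, UC, UC2x, UNC5, UR, UR2, URyf, URyf.mef and FRM. The study set axon guidance mutants and transgenic embryos side by side, some of them in different dosages. slit encodes a repellent of the midline, robo and robo2 encode receptors for it, and comm (commissureless) keeps Robo from the growth cone. What the transgenic group names and the /WT names stand for, and which alleles and drivers were used, are not given in the labels. The titles call the replicates biological and the sample descriptions call them technical, so the p-values measure the spread between arrays, which may be technical. Whole embryos mix all tissues, so fewer cells of a type and less RNA per cell cannot be told apart.

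All values are log2 of the deposited intensities, so changes are differences of log2 values. A gene is called where limma's moderated test, fitted to all arrays, gave a Benjamini-Hochberg adjusted p under 0.05 over all 13966 probe sets. Changes are given ± SE of the fit, and levels as mean ± SD over arrays. The 17 comparisons against WT share the 5 WT arrays. The array SD, meaning the SD of log2 intensity over all probe sets of an array, had group means between 1.703 in UC and 1.805 in URyf.mef. In 4 arrays (URyf replicates 1 and 2, WT replicate 1 and robo replicate 4) it lay more than 0.05 from the group mean, and these are referred to as the arrays that stand apart.

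Across the groups, the mean of the 26 canonical subunits spanned 11.24 in UC to 11.67 in URyf.mef. WT lay at 11.50 ± 0.097 (SD, n = 5), with arrays at 11.41, 11.64, 11.49, 11.56 and 11.42. Above WT came URyf.mef, UC2x (11.61), UNC5 (11.57), robo/WT (11.55), slit/WT (11.53) and comm/WT (11.52). Below WT came UR2 (11.48), comm (11.46), slit and slit.robo (both 11.44), FRM and URyf (both 11.41), robo (11.39), robo12 (11.38), UR (11.32), robo2 (11.28) and UC. Neighbours in this order overlapped in their array values throughout. UC, with arrays from 11.16 to 11.31, robo2, from 11.23 to 11.32, and UR, from 11.26 to 11.38, lay wholly below the lowest WT array. The widest group was URyf, whose arrays ran from 11.15 to 11.73. No group lay wholly above WT.

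**Figure D1:**
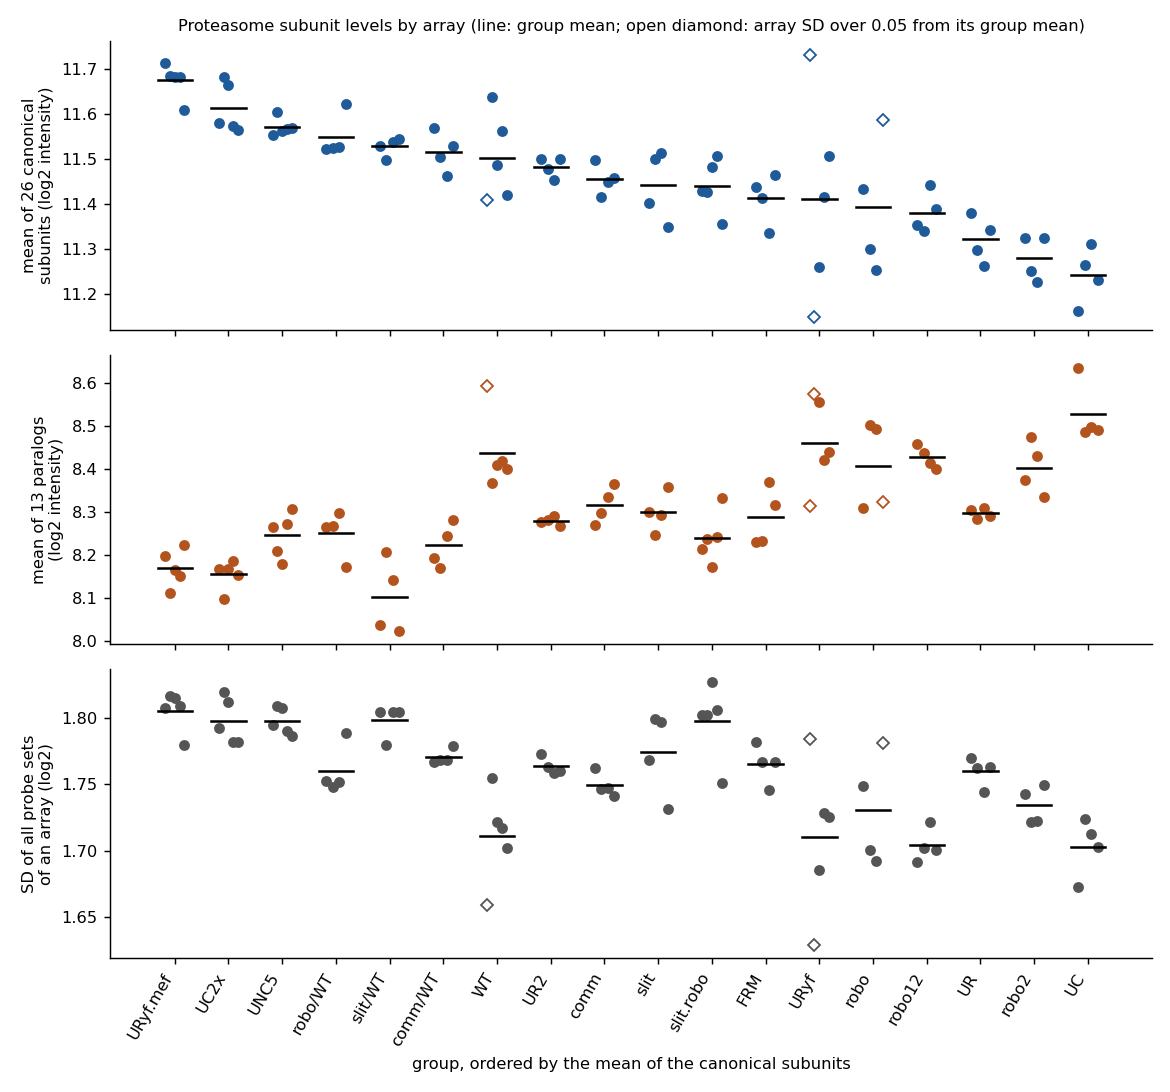
Mean log2 intensity of the 26 canonical subunits, mean of the 13 paralogs and SD of all probe sets, for each of the 78 arrays in 18 groups. All UC, robo2 and UR arrays lie below the lowest WT array for the canonical subunits, and the paralogs are highest in UC and lowest in slit/WT.

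The subunit mean moved with the spread of the array. After group means were removed, the mean of the canonical subunits had a Pearson correlation of 0.911 with the array SD over the 78 arrays (Spearman 0.868), and the mean of the paralogs one of -0.832 (Spearman -0.801). Over the 18 group means the Pearson values were 0.677 and -0.939. The points share their arrays and scaling, and the coefficients are descriptions. The canonical subunits' probe sets are bright, at percentiles 61.5 to 96.1 of all probe sets, and those of the paralogs dimmer, at 6.29 to 54.5. For that reason 2 further readings stand beside the main results: the same counts over the 5384 probe sets at least as bright as the dimmest canonical subunit, and a fit with the array SD as a covariate. In that fit between 8 (robo12) and 25 (UR) canonical subunits were called lower than WT in each of the 17 groups, so the counts against WT below depend on it. Beyond these values the part of array spread in the results was not tested.

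**Figure D2:**
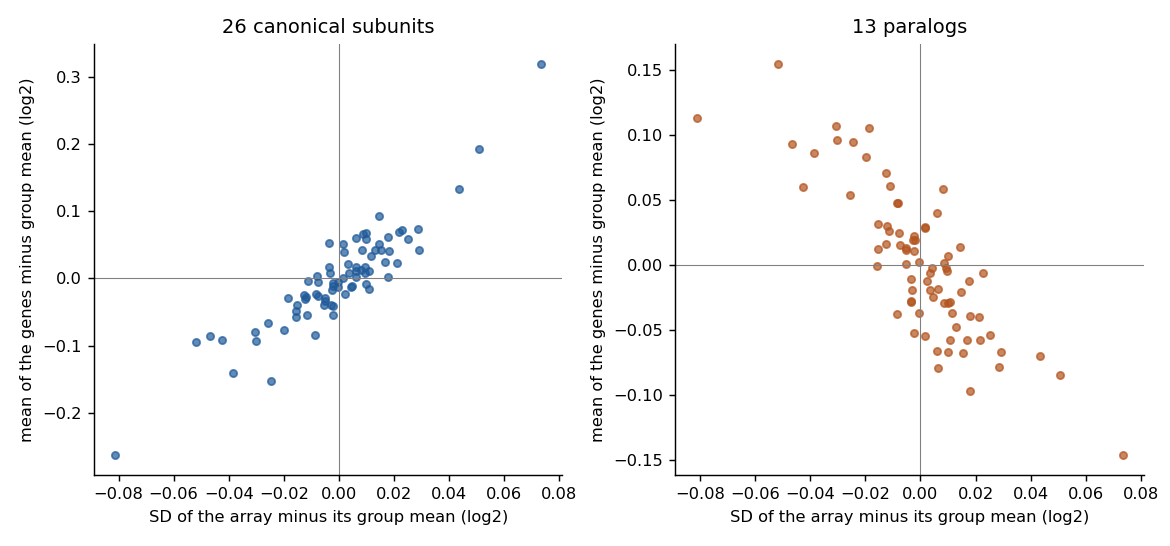
Mean of the 26 canonical subunits and mean of the 13 paralogs against the SD of the array, each as log2 deviation from the group mean, with 1 point per array (78 arrays). The canonical subunits rise and the paralogs fall along the axis of array SD, with Pearson correlations of 0.911 and -0.832.

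All 26 canonical subunits and all 13 paralogs passed the F test over the 17 comparisons against WT. So did 97.2% of all probe sets, and the members' share is read against that. Summed over the 17 comparisons, canonical subunits were called higher than WT in 50 of 442 pairs of gene and comparison (11.3%) and lower in 108 (24.4%). All probe sets were called higher in 16.4% and lower in 23.4% of their pairs. The bright probe sets were not summed. In single comparisons 8.01% (URyf) to 38.6% (UC2x) of them were higher and 7.47% (URyf) to 28.7% (comm/WT) lower.

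Most canonical subunits were lower than WT in UC, robo2 and UR. In UC, 19 of 26 fell and none rose, where 15.4% of all probe sets were called lower and 12.4% higher. Among probe sets at least as bright, 23.6% were called lower. The median change of the subunits was -0.242, beside 0.00382 over all probe sets, and all 26 had a negative sign. The fall took in 4 of 6 alpha, 4 of 6 beta, 3 of 4 Rpt and 8 of 10 Rpn genes. In robo2, 16 fell and none rose, against 13.8% lower and 11.8% higher over all probe sets and 17.8% lower among bright ones, with a median of -0.223. All 6 beta genes were among them, with 3 alpha, 2 Rpt and 5 Rpn genes. The other, dimmer probe set of Prosbeta6 was not called there (-0.0251, adjusted p = 0.826). In UR, 15 fell and none rose, against 18.8% lower and 14.4% higher over all and 15.5% lower among bright ones, with a median of -0.206. Leaving out robo2 replicate 3 took the count in robo2 to 10.

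Prosbeta4, a beta subunit without a proteolytic site of its own, showed the fall in all 3 groups. WT arrays stood at 12.66, 12.78, 12.61, 12.88 and 12.52. The robo2 arrays stood at 12.14, 12.09, 12.23 and 12.23, the UC arrays at 12.23, 12.25, 12.36 and 12.22 and the UR arrays at 12.34, 12.20, 12.23 and 12.28. Every array of these groups was below every WT array. The change was -0.52 ± 0.08 in robo2 (1.43-fold lower, adjusted p = 8.88e-08), -0.43 ± 0.08 in UC (adjusted p = 7.29e-06) and -0.43 ± 0.08 in UR (adjusted p = 8.39e-06). Prosbeta2, which carries the trypsin-like site, stood in robo2 at 12.19, 12.23, 12.21 and 12.30 against 12.64, 12.78, 12.72, 12.80 and 12.53 in WT. No robo2 array reached the lowest WT array. It fell by 0.46 ± 0.07 there (adjusted p = 1.87e-07), and the change was -0.37 ± 0.07 in UC and -0.35 ± 0.07 in UR (adjusted p = 1.77e-05 and 7.37e-05).

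In the regulatory particle, Rpn5, a scaffold subunit of the lid, stood in UC at 11.73, 11.74, 11.60 and 11.70 and in WT at 11.84, 12.28, 12.09, 12.20 and 12.04. The UC arrays were all lower, by 0.40 ± 0.07 on average (adjusted p = 1.84e-05). Rpt5, one of the ATPases, stood in UC at 11.29, 11.50, 11.66 and 11.78 and in WT at 11.81, 12.07, 12.00, 12.00 and 11.91. Its change in UC was -0.40 ± 0.06, also without overlap (adjusted p = 7.19e-07). Rpn11, which cuts ubiquitin chains from the substrate, changed by -0.36 ± 0.07 in UC and by -0.36 ± 0.07 in robo2 (adjusted p = 2.43e-05 and 2.45e-05). Some members did not pass the test: Prosalpha5 changed by -0.06 ± 0.09 in UC (adjusted p = 0.645), Rpn8 by 0.02 ± 0.08 in robo2 (adjusted p = 0.877) and Prosbeta7 by 0.04 ± 0.08 in UR (adjusted p = 0.72).

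The direction in these 3 groups was the same with the array SD as a covariate, where 22 subunits were called lower in UC (17.6% of all probe sets), 22 in robo2 (19.2%) and 25 in UR (17.1%). Without the arrays that stand apart, the counts were 24, 20 and 16. With only UC and WT in the fit, UC had 10 lower calls.

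**Figure D3:**
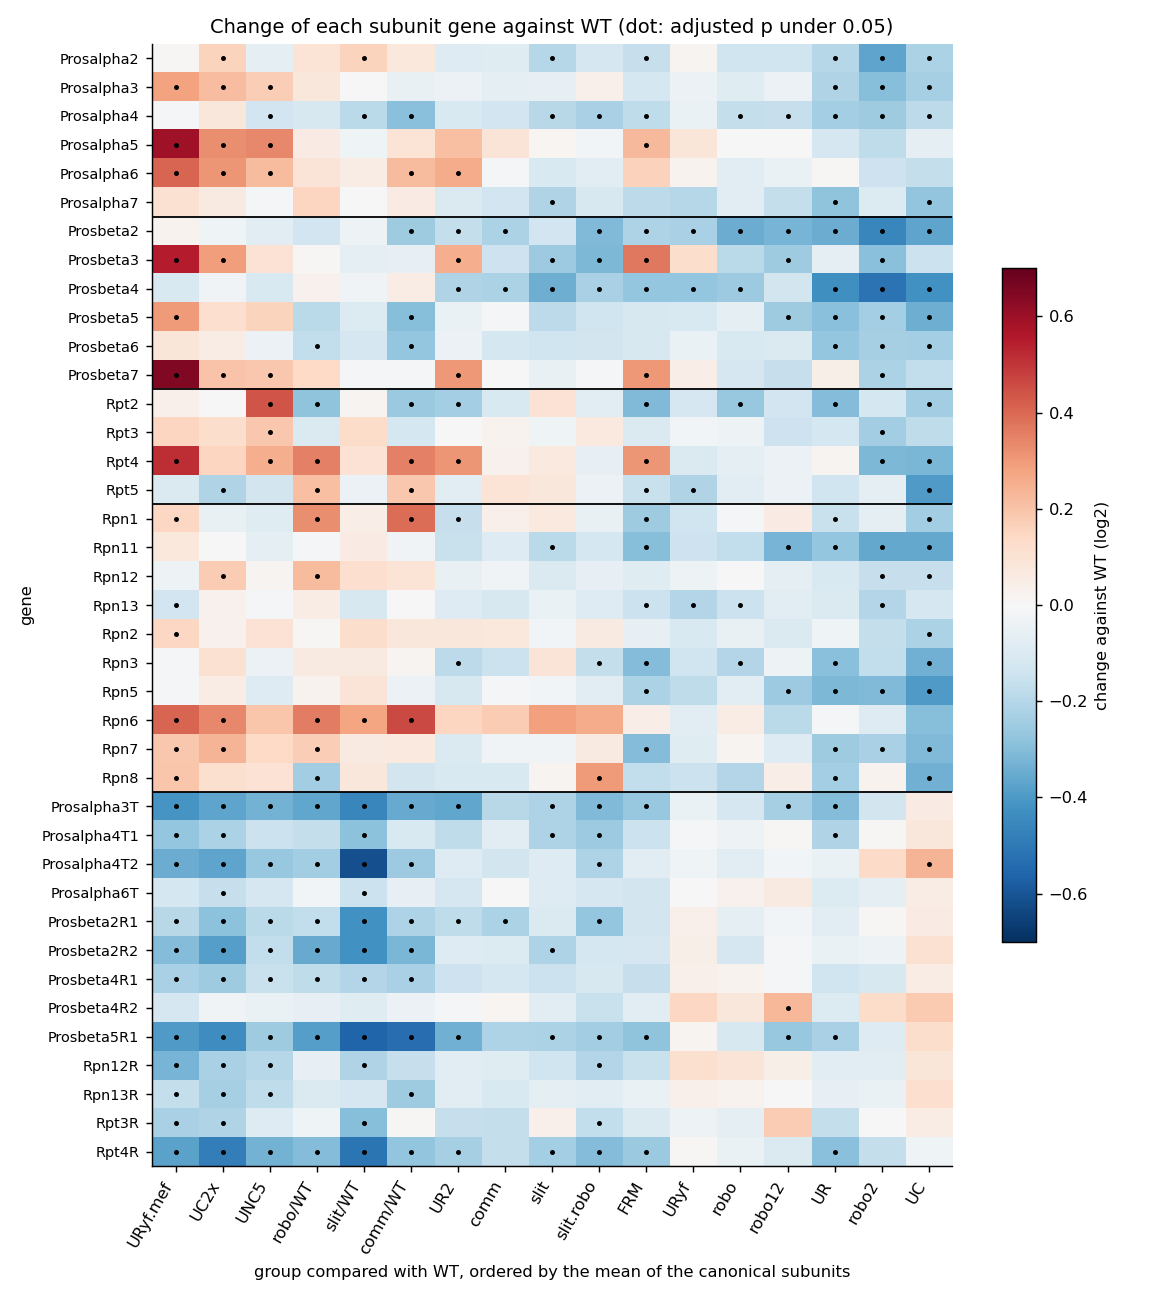
Change against WT (log2, colour) of the 39 members (rows) in 17 groups (columns), where a dot marks a limma adjusted p under 0.05. Canonical subunits are mostly lower in UC, robo2 and UR, and the paralogs are lower in most groups.

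In FRM and UR2 some subunits were called higher than WT and others lower, but most of the higher calls were lost with the array SD as a covariate, which gave 1 higher and 21 lower in FRM and 0 higher and 19 lower in UR2. In FRM, 4 canonical subunits rose and 12 fell, with a median of -0.154. Over all probe sets 17.4% were higher and 23.4% lower, and among bright ones 23.3% and 17.1%. The subunits that rose were Prosalpha5, Prosbeta3, Prosbeta7 and Rpt4. In UR2, 4 rose and 5 fell, against 16.6% and 21.1% of all and 22.7% and 13.7% of bright probe sets. The subunits that rose in UR2 were Prosalpha6, Prosbeta3, Prosbeta7 and Rpt4. The calls in UR2 came to 5 in all without UR2 replicate 2. In URyf.mef, 12 rose and 1 fell, against 24.3% and 40.7% over all probe sets and 37% higher among bright ones, with a median of 0.125. Those that rose were Prosalpha3, Prosalpha5, Prosalpha6, Prosbeta3, Prosbeta5, Prosbeta7, Rpt4, Rpn1, Rpn2, Rpn6, Rpn7 and Rpn8. The one that fell was Rpn13, a ubiquitin receptor, by 0.14 ± 0.05 (adjusted p = 0.0134).

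Prosbeta7, a beta subunit without a proteolytic site, had the highest change in URyf.mef. Its URyf.mef arrays stood at 12.53, 12.52, 12.51, 12.55 and 12.40, and its WT arrays at 11.72, 11.97, 11.81, 11.99 and 11.78. The groups did not overlap, and the change was 0.65 ± 0.08 (1.57-fold, adjusted p = 2.99e-10). The gene also rose in FRM, by 0.30 ± 0.08, and in UR2, by 0.30 ± 0.08 (adjusted p = 0.00323 and 0.00349). These were 0.0753 and 0.0833 with the array SD as a covariate (adjusted p = 0.326 and 0.292), and the change in URyf.mef was 0.255 (adjusted p = 0.000985). Prosbeta3, another beta subunit without a site, stood in URyf.mef at 11.54, 11.48, 11.32, 11.28 and 11.40, in FRM at 11.21, 11.28, 11.15 and 11.25 and in WT at 10.80, 10.99, 10.78, 10.93 and 10.77. Both groups lay above every WT array, by 0.55 ± 0.07 (adjusted p = 4.43e-09) and 0.37 ± 0.08 (adjusted p = 0.000126). In slit.robo the same gene stood at 10.52, 10.62, 10.47, 10.59 and 10.50. All of these were below the lowest WT array, with a change of -0.32 ± 0.07 (adjusted p = 0.000288).

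Prosalpha5, an alpha ring subunit, stood in URyf.mef at 10.99, 11.06, 11.08, 10.89 and 10.94 and in WT at 10.15, 10.59, 10.32, 10.51 and 10.44. It was 1.51-fold higher, by 0.59 ± 0.08 (adjusted p = 1.78e-08), and the groups did not overlap. Rpt4, an ATPase called higher than WT in 6 groups, stood in URyf.mef at 12.16, 12.05, 12.04, 12.08 and 11.87, in FRM at 11.85, 11.76, 11.74 and 11.98, in UR2 at 11.82, 11.82, 11.89 and 11.80 and in WT at 11.06, 11.84, 11.59, 11.63 and 11.49. WT replicate 1 was far below the other WT arrays. The changes were 0.52 ± 0.11, 0.31 ± 0.12 and 0.31 ± 0.12 (adjusted p = 4.63e-05, 0.0246 and 0.0275). Without WT replicate 1, the adjusted p was 0.177 in FRM and 0.195 in UR2, so these calls rest on that array. The changes with the array SD as a covariate were -0.0215, 0.000523 and 0.00746 in the 3 groups (adjusted p = 0.891, 0.997 and 0.96). In FRM, Rpt2, the ATPase that opens the gate of the core, stood at 11.04, 10.93, 11.04 and 11.12 and fell by 0.31 ± 0.08 (adjusted p = 0.00227). It was also the lowest call in UR2, at -0.24 ± 0.08 (adjusted p = 0.0183), which was lost without WT replicate 1 (adjusted p = 0.0843). Rpn7, a lid subunit, fell by 0.31 ± 0.07 in FRM and Rpn11 by 0.30 ± 0.07 (adjusted p = 0.00084 and 0.00037).

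UC2x and UNC5 had more canonical subunits called higher than lower, and so did the probe sets at least as bright. In UC2x, 9 rose and 1 fell, against 24.2% and 34.7% of all probe sets and 38.6% and 23.7% of bright ones. The median was 0.11, beside 0.0834 over bright probe sets. Rpn6, a lid subunit, had the highest change, at 0.33 ± 0.12 (adjusted p = 0.0109, and 0.202 without WT replicate 1), and Rpt5 was the one that fell, at -0.21 ± 0.06 (adjusted p = 0.0023). Those that rose included Prosalpha5, at 0.33 ± 0.08 (adjusted p = 0.000715), and Prosalpha6, at 0.31 ± 0.08 (adjusted p = 0.000921). In UNC5, 7 rose and 1 fell, against 21% and 33.3% of all probe sets and 35.3% and 22.5% of bright ones. The median was 0.0606, beside 0.0489 over bright probe sets, and the calls came to 4 without UNC5 replicate 3. The one that fell was Prosalpha4, at -0.13 ± 0.06 (adjusted p = 0.0377, and 0.119 without WT replicate 1). Rpt2 had the highest change there. Its UNC5 arrays stood at 11.72, 11.78, 11.77, 11.80 and 11.81, and its WT arrays at 11.52, 11.54, 11.35, 11.17 and 11.11. All UNC5 arrays exceeded the WT arrays, with a change of 0.44 ± 0.08 (1.36-fold, adjusted p = 4.84e-06, and 0.0783 with the array SD as a covariate). Prosalpha5, at 10.75, 10.75, 10.68, 10.76 and 10.76 in UNC5, changed by 0.34 ± 0.08 (adjusted p = 0.000663). With the array SD as a covariate, the medians were -0.17 in UC2x, -0.214 in UNC5 and -0.155 in URyf.mef. After quantile normalization, 3 were called higher and 8 lower in UC2x, 2 higher and 12 lower in UNC5, and 10 higher and 9 lower in URyf.mef. The direction against WT in these groups depends on the processing.

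The 3 /WT groups had few and mixed calls. In comm/WT, 5 subunits rose and 5 fell, against 21.1% and 33.4% of all probe sets and 30.4% and 28.7% of bright ones. In robo/WT, 6 rose and 3 fell, against 20.6% and 26% of all and 30% and 22% of bright ones. There were 5 calls in all without robo/WT replicate 4. In slit/WT, 2 rose and 1 fell, against 25.2% and 37.5% of all and 38.1% and 25.2% of bright ones. There were 5 calls without WT replicate 2. In slit/WT, Rpn6 had the highest change, at 0.28 ± 0.12, and Prosalpha4 was the one that fell, at -0.19 ± 0.06 (adjusted p = 0.045 and 0.00474). Without WT replicate 1, Rpn6 in slit/WT had an adjusted p of 0.448. Rpt2 was lowest in robo/WT, at -0.28 ± 0.08 (adjusted p = 0.00422). Rpn1, a scaffold of the base, stood in comm/WT at 11.51, 11.64, 11.47 and 11.46, in robo/WT at 11.32, 11.42, 11.45 and 11.63 and in WT at 11.09, 11.21, 11.04, 11.21 and 11.09. Neither group overlapped WT, and the changes were 0.39 ± 0.06 (adjusted p = 5.25e-07) and 0.33 ± 0.06 (adjusted p = 2.82e-05). Among those lower in comm/WT, Prosalpha4 stood at 10.04, 10.09, 10.35 and 10.30 against 10.57, 10.48, 10.48, 10.50 and 10.40 in WT. Its change was -0.29 ± 0.06, without overlap (adjusted p = 3.9e-05). Prosbeta5, with the chymotrypsin-like site, fell by 0.30 ± 0.08 in comm/WT (adjusted p = 0.00205).

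Rpn6, a lid subunit that braces the regulatory particle against the core, had the highest change in comm/WT, at 0.46 ± 0.12 (adjusted p = 0.00117), and in robo/WT, at 0.36 ± 0.12 (adjusted p = 0.0132). The comm/WT arrays stood at 12.17, 12.06, 11.76 and 11.79, the robo/WT arrays at 11.78, 11.69, 11.86 and 12.02 and the WT arrays at 10.79, 11.76, 11.62, 11.58 and 11.64. WT replicate 1 lay far below the others, and without it Rpn6 in robo/WT had an adjusted p of 0.187. The difference of Rpn6 from WT was 0.112 in comm/WT and 0.067 in robo/WT with the array SD as a covariate (adjusted p = 0.325 and 0.584). The log2 values of the GAPDH control probe sets of the 3' and 5' ends differed by 2.80, 2.75, 1.81 and 1.78 in the 4 comm/WT arrays, in the same order, and by 1.51 to 1.86 in WT. This difference was 1.959 to 2.311 in robo/WT, above every WT array. In comm/WT, Rpt4 stood at 12.03, 12.05, 11.65 and 11.76, so the first 2 arrays were the highest for Rpn6 and Rpt4 and, above, the lowest for Prosalpha4. The part of this end difference in the comm/WT and robo/WT values was not tested.

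In the remaining groups, most of the calls were lower. Of bright probe sets, 17.1% were lower in slit, 25% in slit.robo, 11.5% in robo, 14.1% in robo12, 14.9% in comm and 7.47% in URyf. The shares of bright ones called higher were 25.1%, 32.9%, 12.8%, 11.5%, 19.1% and 8.01%, in the same order. In slit, 6 fell and none rose, against 24.2% lower and 15.8% higher over all probe sets, with 10 calls without WT replicate 5. Prosbeta4 changed by -0.34 ± 0.08 there (adjusted p = 0.000326). In slit.robo, 5 fell and 1 rose, against 35.9% and 21.2%, with 10 calls without WT replicate 5. In robo, 6 fell and none rose, against 8.82% and 7.81%, with Prosbeta2 lowest, at -0.35 ± 0.07 (adjusted p = 9.58e-05). Without robo replicate 3 only 1 was called in robo. In robo12, 6 fell and none rose, against 10.1% and 8.51%, with Prosbeta2 at -0.33 ± 0.07 and Rpn11 at -0.33 ± 0.07 (adjusted p = 0.000262 and 0.000209). Without WT replicate 2, robo12 had 2 calls. In comm, 2 fell and none rose, against 15.4% and 12.1%. They were Prosbeta2, at -0.22 ± 0.07, and Prosbeta4, at -0.22 ± 0.08 (adjusted p = 0.0128 and 0.0248), and neither was called without comm replicate 2. In URyf, 4 fell and none rose, against 5.01% and 4.77%, with 11 calls without URyf replicate 1 and 1 without URyf replicate 3. Prosbeta4 was the lowest there, at -0.27 ± 0.07 (adjusted p = 0.00627, and 0.0946 without URyf replicate 2).

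The one subunit higher in slit.robo was Rpn8, the partner of Rpn11 in the lid. Its slit.robo arrays stood at 10.60, 10.52, 10.69, 10.64 and 10.33, and its WT arrays at 10.19, 10.47, 10.11, 10.33 and 10.19. Its slit arrays stood at 10.25, 10.31, 10.40 and 10.15 and its robo arrays at 10.04, 10.03, 10.05 and 10.11. The slit.robo arrays lay above all robo arrays and overlapped WT and slit. With the array SD as a covariate, the adjusted p against WT was 0.989. The change was 0.30 ± 0.07 against WT (adjusted p = 0.000591), 0.28 ± 0.08 against slit (adjusted p = 0.00656) and 0.50 ± 0.08 against robo (adjusted p = 1.22e-06). Against slit, slit.robo had 1 subunit higher and 1 lower (10.1% and 7.1% of all probe sets), the lower one being Rpn3, a lid subunit, at -0.26 ± 0.07 (adjusted p = 0.00547). Among bright probe sets 15.6% were higher and 9.45% lower. There were 4 calls without slit replicate 4. Against robo, slit.robo had Rpn8 alone as higher and none lower (15% and 13.7% of all and 24.1% and 8.64% of bright probe sets). It had 2 calls without robo replicate 4. Adding the array SD as a covariate left 1 higher and 12 lower, and with array weights 8 were higher and 0 lower.

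Among related groups, UC2x and UC differed in the largest number of subunits. All 26 canonical subunits were higher in UC2x, against 30.5% higher and 38.7% lower over all probe sets, and 47.5% higher among bright ones. The median was 0.374, beside -0.0481 over all and 0.127 over bright probe sets, and 22 of the 26 did not overlap between the groups, as did 50.8% of all and 63.2% of bright probe sets. Rpn6 stood in UC2x at 11.79, 11.73, 11.96, 11.72 and 11.87 and in UC at 10.85, 11.21, 11.39 and 11.29. The change was 0.63 ± 0.12 (1.55-fold, adjusted p = 9.53e-06). Rpn7 stood in UC2x at 11.59, 12.02, 11.99, 11.88 and 11.94 and in UC at 11.32, 11.29, 11.37 and 11.38, a change of 0.55 ± 0.07 (adjusted p = 4.59e-09). Both were higher in every UC2x array than in any UC array, and with the array SD as a covariate Rpn6 had an adjusted p of 0.606. Rpn13 changed least, at 0.15 ± 0.05 (adjusted p = 0.0107). The mean array SD was 1.797 in UC2x and 1.703 in UC, and with it as a covariate 3 subunits were called higher (15.6% of all probe sets) and the median was 0.0807.

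URyf.mef against URyf gave 18 subunits higher and none lower, against 26.7% and 38.9% over all probe sets and 40.6% higher among bright ones, with a median of 0.252. Prosbeta7, at 12.34, 11.58, 11.64, 11.96 and 11.96 in URyf, lay below every URyf.mef array, by 0.60 ± 0.08 (adjusted p = 3.33e-09). It was the only canonical subunit whose arrays did not overlap between URyf.mef and URyf, beside 30% of all and 30.6% of bright probe sets. The other subunits called higher overlapped. Rpt4 changed by 0.62 ± 0.11 (adjusted p = 2.56e-06, and 0.595 with the array SD as a covariate). The array SD averaged 1.805 and 1.710. With it as a covariate, 1 subunit was higher (9.11% of all) and 2 were lower (7.13%), with a median of -0.0339. Without the arrays that stand apart, of which 2 are URyf, 20 subunits were higher.

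UR2 and UR had like array SDs, at 1.764 and 1.760. Between them 3 subunits rose and none fell, where 2.91% of all probe sets were called higher and 2.93% lower. Among bright ones 3.66% were higher and 4.64% lower. The 3 were Prosbeta3, at 0.32 ± 0.08 (adjusted p = 0.00649), Prosalpha5, at 0.33 ± 0.09 (adjusted p = 0.0191), and Prosbeta6, at 0.23 ± 0.07 (adjusted p = 0.0332). The other, dimmer probe set of Prosbeta6 changed by 0.027 (adjusted p = 0.931). Prosbeta3 stood in UR2 at 11.09, 11.12, 11.16 and 11.07 and in UR at 10.93, 10.73, 10.77 and 10.71, without overlap. The median over the 26 subunits was 0.152, beside -0.00217 over all probe sets. Of the 26, 25 had a positive sign, beside 49% of all probe sets. The arrays of 14 did not overlap between the groups, beside 19.9% of all and 27.8% of bright probe sets. Prosbeta7 changed by 0.26 ± 0.09 (adjusted p = 0.0657) and Rpn1 by -0.01 ± 0.07 (adjusted p = 0.989). With the array SD as a covariate 9 were called higher (4.83% of all). With only these groups in the fit the count was 14, and without UR replicate 3 it was 1.

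**Figure D4:**
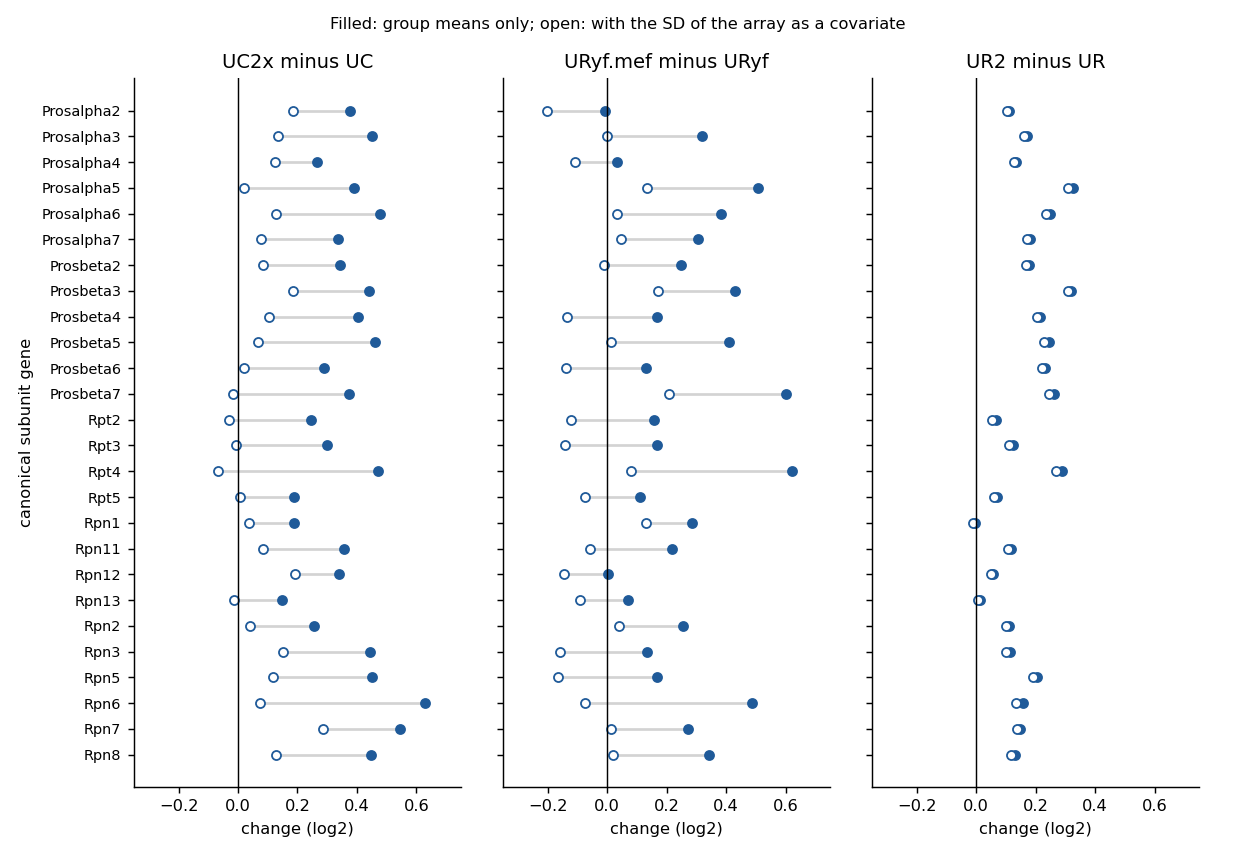
Change (log2) of each of the 26 canonical subunits in UC2x minus UC, URyf.mef minus URyf and UR2 minus UR, from the fit of group means and from the fit with the SD of the array as a covariate. In the fit of group means all subunits are above 0 in UC2x minus UC and 25 in UR2 minus UR, and with the covariate the medians are 0.0807, -0.0339 and 0.135.

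URyf against UR gave 3 subunits higher and none lower, against 13.6% and 14.5% over all probe sets and 8.47% and 20.3% over bright ones. They were Prosalpha2, at 0.22 ± 0.06, Prosbeta6, at 0.22 ± 0.07, and Prosalpha4, at 0.19 ± 0.06 (adjusted p = 0.00369, 0.00923 and 0.0111). There were 12 calls without URyf replicate 2, and 21 with the array SD as a covariate (11.4% of all). Mutants against their /WT groups had mostly lower calls in the fit of group means. In robo against robo/WT, 11 fell and none rose, against 17.1% lower and 12% higher over all probe sets, with a median of -0.18. Among bright ones 24.9% were lower and 13.6% higher. Rpn1 stood in robo at 11.13, 11.06, 11.02 and 11.25, below all robo/WT arrays, a change of -0.34 ± 0.07 (adjusted p = 7.03e-05). Rpt4 stood in robo at 11.62, 11.27, 11.19 and 11.72 and in robo/WT at 11.69, 11.94, 11.84 and 12.02. Its change was -0.42 ± 0.12 (adjusted p = 0.00563). Leaving out robo replicate 3 gave 6 calls and leaving out robo replicate 4 gave 17. The GAPDH end difference was 1.727 to 1.972 in robo and 1.959 to 2.311 in robo/WT, and its part here was not tested.

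In slit against slit/WT, 5 fell and none rose, against 12.6% and 13.8% of all probe sets and 17.4% and 13.7% of bright ones. The median of -0.0731 became 0.0182 with the array SD as a covariate, where 1 was called higher and 4 lower. Prosalpha2 stood in slit at 12.64, 12.87, 12.84 and 12.72 and in slit/WT at 13.08, 13.15, 13.17 and 13.11. The change was -0.36 ± 0.06, without overlap (adjusted p = 8.66e-06). In comm against comm/WT, 3 fell and 1 rose, against 12.3% and 9.52% of all and 16.4% and 12.2% of bright probe sets. There were 2 calls without comm/WT replicate 2 and 8 without comm/WT replicate 3. With the array SD as a covariate 5 rose and 3 fell, and the median of -0.0746 became -0.0152. After quantile normalization 3 rose and 2 fell, so the balance of calls depends on the processing. Rpn1, at 11.12, 11.20, 11.19 and 11.13 in comm, was lower than in every comm/WT array, by 0.36 ± 0.07 (adjusted p = 4.33e-05). Prosbeta5 was higher, by 0.29 ± 0.09 (adjusted p = 0.0111). The GAPDH end difference was 1.902 to 1.945 in comm, above every WT array, and 1.779 to 2.801 in comm/WT. Its part in comm against comm/WT was not tested. In robo2 against robo, 3 fell and none rose, against 4.02% and 5.3% of all and 6.15% and 7.65% of bright probe sets. Prosbeta4 changed by -0.26 ± 0.08 there (adjusted p = 0.024). None was called without robo replicate 4, and 8 were without robo replicate 3. In robo12 against robo, Rpn8 alone rose and none fell, against 3.7% and 3.44% of all and 4.05% and 6.13% of bright probe sets. Rpn8 changed by 0.25 ± 0.08 (adjusted p = 0.0481). It was not called without robo replicate 1.

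The members differed in how far they ranged over the groups. The ranges of group means, highest minus lowest, reached 0.768 for Prosalpha5, 0.581 for Prosalpha3 and 0.575 for Prosalpha6 among alpha genes. Among beta genes they reached 0.867 for Prosbeta7, 0.866 for Prosbeta3 and 0.642 for Prosbeta5. Rpt4 ranged over 0.84, Rpt2 over 0.746 and Rpt5 over 0.608. Of the Rpn genes, Rpn6 ranged over 0.76, Rpn1 over 0.637 and Rpn8 over 0.632. The narrowest was Rpn13, at 0.255. Prosalpha4 and Prosbeta2 were called lower than WT in 11 groups each and Prosbeta4 in 10, and none of these was called higher in any. Prosalpha5, Prosalpha6 and Rpn6 were called lower in none of the 17 and higher in 4, 5 and 5. With the array SD as a covariate, each of them was called lower in slit/WT, robo2, slit.robo and UR, among others. Their only higher call there was Prosalpha5 in URyf.mef, at 0.221 (adjusted p = 0.022). The correlation of each subunit with the mean of the other canonical subunits ran from 0.477 (Rpn1) to 0.843 (Rpt4) over the 78 arrays within groups, and from 0.292 (Rpt5) to 0.924 (Prosalpha3) over the 18 group means. These describe arrays that share a scaling.

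**Figure D5:**
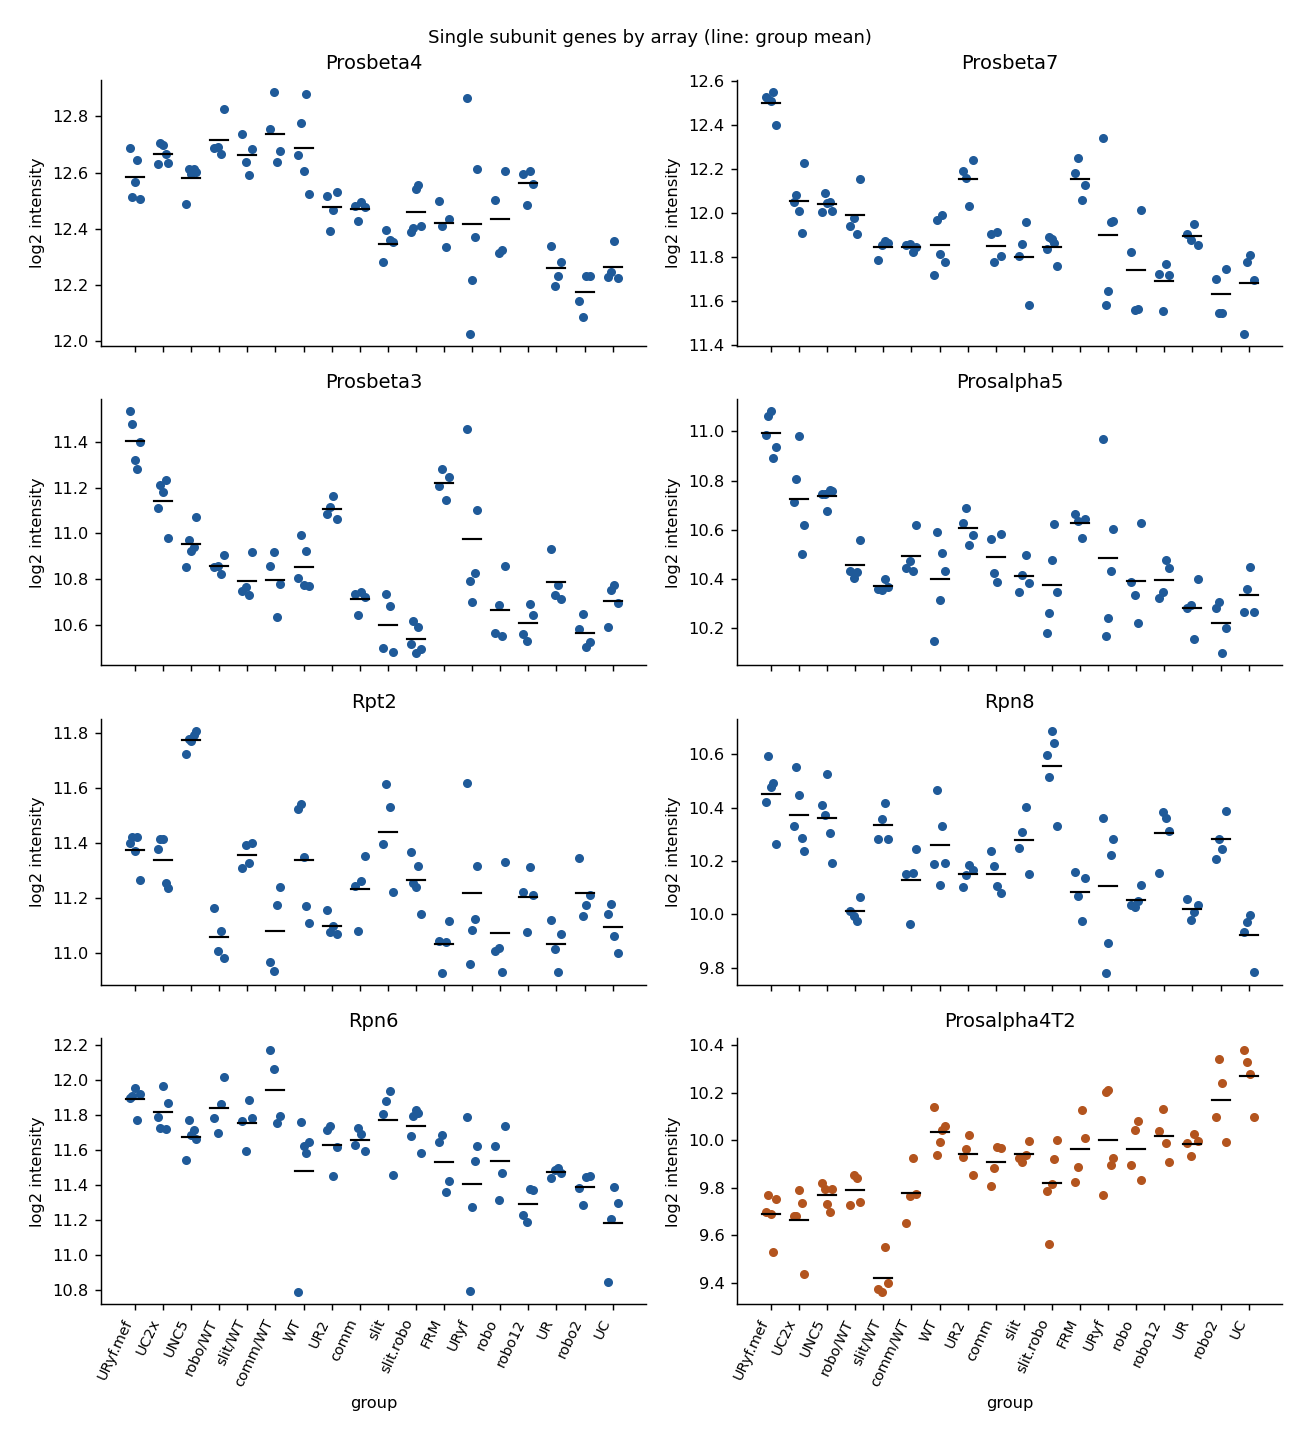
Log2 intensity by array (points) and group mean (lines) for 8 members in the 18 groups; levels are not comparable between panels. Prosbeta7 is highest in URyf.mef, Rpt2 in UNC5 and Rpn8 in slit.robo, while Prosalpha4T2 is lowest in slit/WT and highest in UC.

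The paralogs were mostly lower than WT. Over the 17 comparisons they were called lower in 85 of 221 pairs of gene and comparison (38.5%) and higher in 2, beside 23.4% and 16.4% over all probe sets. Prosalpha3T and Prosbeta5R1 were lower in 12 groups each and Rpt4R in 11. In UC2x, 12 of 13 were lower, and in slit/WT and URyf.mef 11, beside 34.7%, 37.5% and 40.7% of all probe sets. With the array SD as a covariate these became 2, 7 and 0, beside 15%, 20.1% and 12.9%. The share over equally dim probe sets was not taken.

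Prosalpha4T2, an alpha paralog, had the widest range, with slit/WT arrays at 9.37, 9.36, 9.55 and 9.40, WT arrays at 10.14, 9.94, 9.99, 10.04 and 10.06 and UC arrays at 10.38, 10.33, 10.28 and 10.10. It was 1.53-fold lower in slit/WT, with a change of -0.61 ± 0.07 and no overlap (adjusted p = 3.77e-10), and higher in UC, by 0.24 ± 0.07 (adjusted p = 0.0121, and 0.0677 without UC replicate 1). Its slit arrays stood between 9.908 and 9.999 and its UC2x arrays at 9.68, 9.68, 9.79, 9.73 and 9.44. All slit arrays were above the slit/WT arrays, and all UC2x arrays below the UC arrays, by 0.61 ± 0.07 (adjusted p = 2.61e-10). All 13 paralogs were called lower in UC2x than in UC, beside 38.7% of all probe sets. With the array SD as a covariate 5 were, beside 15.7%. Prosbeta5R1, a paralog of Prosbeta5, stood in slit/WT at 8.32, 8.30, 8.30 and 7.75 and in WT at 8.95, 8.67, 8.64, 8.64 and 8.73. Its change was -0.56 ± 0.09 (adjusted p = 5.19e-07), with replicate 4 far below the others. The other call above WT was Prosbeta4R2 in robo12, at 7.91, 7.41, 7.58 and 7.62 against 7.67, 7.34, 7.29, 7.36 and 7.32 in WT, a change of 0.23 ± 0.08 with overlap (adjusted p = 0.0446), which was lost without robo12 replicate 1 (adjusted p = 0.32).

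Testis and male germline markers, of which 7 of 8 were measured, were called lower than WT in 31 of 119 pairs (26.1%) and higher in none, beside 23.4% lower and 16.4% higher over all probe sets. Their mean was 8.259 in WT (8.192 to 8.349), 8.041 in UC2x (7.968 to 8.122), 8.05 in slit/WT (7.96 to 8.188) and 8.315 in UC (8.241 to 8.418). The part of array spread and of germline content in the paralog values was not tested.

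The dimmer probe sets of Prosalpha7 and Prosbeta6 differed in their calls from the chosen ones in the comparisons given here. For Prosalpha7, the dimmer probe set was lower in UC2x than in UC, with a change of -0.453 ± 0.0661 (adjusted p = 2.56e-08), where the chosen one was higher, by 0.34 ± 0.08 (adjusted p = 0.000148). It was also called lower than WT in slit/WT, at -0.49 (adjusted p = 6.6e-09), where the chosen one had a change of -0.00 ± 0.08 (adjusted p = 0.996). For Prosbeta6, the dimmer probe set was lower in URyf.mef than in URyf, at -0.183 (adjusted p = 0.00614), and the chosen one changed by 0.13 ± 0.06 (adjusted p = 0.0644). Against WT, both chosen ones were called lower in UC and UR. The dimmer ones of Prosalpha7 and Prosbeta6 changed by -0.0186 and -0.0265 in UC (adjusted p = 0.879 and 0.809). In UR they changed by -0.115 and -0.0944 (adjusted p = 0.173 and 0.245). The counts in UC, robo2 and UR rest on the chosen ones.

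Partners of the proteasome were read from lists of related genes, beside the 16.4% higher and 23.4% lower of all pairs. Of 9 activators, assembly factors and associated proteins 7 were measured, with 17 of 119 pairs higher than WT and 11 lower. In UC 2 were lower (15.4% of all probe sets), and in URyf.mef 4 were higher (24.3%). Sem1, the smallest lid subunit, changed by -0.61 ± 0.12 in UC (adjusted p = 7.49e-05) and was 1.05 ± 0.12 higher in UC2x than in UC (adjusted p = 7.05e-11). Pomp, a chaperone of core assembly, rose by 0.58 ± 0.10 in comm/WT (adjusted p = 2.45e-06). Uch-L5, a deubiquitinase of the regulatory particle, rose by 0.59 ± 0.08 in URyf.mef (adjusted p = 8.95e-09). REG, an activator of the core, changed by -0.38 ± 0.11 in robo12 (adjusted p = 0.00653).

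Of 14 genes for ubiquitin supply and substrate delivery 10 were measured, with 43 of 170 pairs higher and 23 lower. In UC 5 were lower (15.4% of all probe sets), and in URyf.mef 6 were higher (24.3%). Rad23, a shuttle that carries ubiquitin chains to the proteasome, was called higher than WT in 11 groups and lower in none, with 0.88 ± 0.13 in URyf.mef (adjusted p = 3.12e-08). TER94, the unfolding ATPase of the ubiquitin system, rose by 0.62 ± 0.09 in comm/WT (adjusted p = 1.28e-07) and fell by 0.46 ± 0.09 in UC (adjusted p = 7.63e-05). Npl4, a cofactor of TER94, was called lower in 9 groups and higher in none, with -0.30 ± 0.05 in robo2 (adjusted p = 2.8e-06). Ubi-p63E, which encodes polyubiquitin, was called higher in 11 groups, with 0.32 ± 0.07 in UR2 (adjusted p = 0.000128).

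The cap-n-collar pathway, whose transcription factor induces proteasome and antioxidant genes in flies, was called higher than WT in 63 of 153 pairs and lower in 6. In UC, where most subunits fell, 2 of its 9 genes rose and 3 fell, beside 12.4% and 15.4% of all probe sets. In UR and in robo2 3 rose, beside 14.4% and 11.8%. Trxr1, a thioredoxin reductase, rose by 0.41 ± 0.06 in slit.robo (adjusted p = 1.52e-07). ref(2)P, the autophagy receptor, rose by 0.46 ± 0.07 in robo/WT (adjusted p = 6.39e-07). GstD2, a glutathione transferase, rose by 0.48 ± 0.06 in URyf.mef (adjusted p = 3.22e-10). Gclm, a subunit of the first enzyme of glutathione synthesis, rose by 0.51 ± 0.09 in slit.robo (adjusted p = 3.97e-06).

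The COP9 signalosome, a complex built like the proteasome lid, was called lower than WT in 39 of 153 pairs and higher in 16. CSN8 changed by -0.66 ± 0.09 in slit (adjusted p = 5.93e-08) and by 0.50 ± 0.09 in URyf.mef (adjusted p = 2.6e-06). CSN6 was lower than WT in 12 groups and higher in none, with -0.49 ± 0.06 in comm/WT (adjusted p = 3.76e-11). CSN3 rose by 0.51 ± 0.07 and alien, another subunit, by 0.59 ± 0.09 in URyf.mef (adjusted p = 1.95e-09 and 3.59e-07). The CCT chaperonin, a folding complex of the cytosol, was called higher than WT in 43 of 136 pairs and lower in 13. In UC 5 of its 8 genes were lower, beside 15.4% of all and 23.6% of bright probe sets. All 8 were higher in UC2x than in UC, beside 30.5% and 47.5%, with CCT5 at 0.66 ± 0.08 (adjusted p = 1.58e-10). CCT4 fell by 0.40 ± 0.06 in UC (adjusted p = 1.82e-07), and CCT1 rose by 0.38 ± 0.06 in robo/WT (adjusted p = 5.17e-07). CCT2 rose in 11 groups against WT, with 0.71 ± 0.10 in robo/WT (adjusted p = 1.83e-08).

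Other cell types were read from their markers, beside the 16.4% higher and 23.4% lower of all pairs. Neuron markers (3 of 4 measured) were called higher than WT in 15 of 51 pairs (29.4%) and lower in none, and up, the only one of 4 muscle markers measured, was higher in 15 of 17 (88.2%). Glia markers (3 of 3) were higher in 2 of 51 pairs (3.92%) and lower in 3 (5.88%), and hemocyte markers (3 of 3) higher in 12 (23.5%) and lower in 8 (15.7%). Epidermis and cuticle markers (4 of 4) were higher in 39 of 68 pairs (57.4%) and lower in 13 (19.1%), and gut and fat body markers (3 of 4) higher in 13 of 51 (25.5%) and lower in 23 (45.1%). The last 3 lists join genes that went opposite ways. TwdlQ was higher in 17 groups and Cpr67Fa2 in 16 (lower in 1), but Cpr49Ac was higher in 1 and lower in 6 and kkv higher in 5 and lower in 6. Jon65Aiii was higher in 13 and lower in 2, and Fbp1 and Lsp2 were only lower, in 11 and 10. Of the hemocyte markers, srp was only higher, in 11, Pxn only lower, in 7, and Hml 1 each way. In UC, where the subunits were lowest, up averaged 13.92 (13.86 to 14.02), in URyf.mef, where they were highest, 13.80 (13.58 to 14.00), and in WT 13.02 (12.60 to 13.43). In UC, URyf.mef and WT, neuron markers averaged 9.526, 9.864 and 9.347 and glia markers 8.984, 9.136 and 9.119. In the same order, epidermis and cuticle markers averaged 11.04, 11.53 and 10.79 and hemocyte markers 9.075, 9.265 and 9.181. Gut and fat body markers averaged 11.72, 11.61 and 11.56. The part of tissue content in the subunit values was not tested.

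The 10 genes outside the symbol rule whose 18 group means were most like the mean of the canonical subunits were CG7872 (Pearson 0.937), Roc1a (0.917), Srrm1 (0.914), CG2021 (0.911), LysRS (0.91), eIF3e (0.908), eIF3d1 (0.905), Chro (0.9), Sem1 (0.9) and CG15005 (0.897). Within groups, over the 78 arrays, their correlations ran from 0.173 for Srrm1 to 0.884 for LysRS. Sem1 is itself a lid subunit. The points share their arrays and array SD.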

How the data were processed

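Affymetrix arrays of whole Drosophila embryos at stage 15 were compared, with 78 arrays in 18 groups taken from the sample titles. The authors deposited RMA intensities per probe set on a linear scale; RMA is named in the submitters' processing notes, and neither its version nor its scope is given in the sources used here. Since the plan had assumed log2 values, log2 was taken of the deposited intensities first. Array medians ran from 811.1 to 857.7, and the number of arrays limits the precision. Of the 13966 probe sets tested, after 44 Affymetrix controls were left out, 12443 had 1 gene name, 327 several and 1196 none. Names came from GEO's platform annotation, with 12394 updated through the Entrez id to the RefSeq table of Drosophila release 6.

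limma 3.58.1 in R 4.3.3 fitted the 18 group means (60 residual degrees of freedom), with 17 contrasts against WT and 11 between related groups, Benjamini-Hochberg adjustment within each contrast over all probe sets, and a moderated F test over the 17. The fit was tested on simulated data. Plots used Python 3.11.15 and matplotlib 3.10.9. No arrays held identical values. Replicate numbers did not pair the arrays: deviations of same-numbered arrays correlated between -0.626 and 0.578 over 118 pairs, and in 0 of 28 comparisons was every value above 0.1.

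The members and lists were chosen with earlier results of these data known. Named were the highest and lowest call of each comparison, the 3 members of widest range in each class, those called most often, up to 4 genes of each other list by mean absolute change, and the 10 genes most like the canonical mean. Other genes and array values were chosen as examples after their values were seen. Alternatives were quantile normalization, leaving out probe sets below the 40th percentile, only the compared groups in the fit and the replicate block. Others were array weights, the array SD as a covariate and the average of all other groups except WT as the reference. All probe sets of a gene were also used, and each array was left out. Leaving out the arrays that stand apart was chosen after seeing the data.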

Additional observations from a re-analysis of the deposited data

Results flagged for a closer look

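Of 98 sets of values of 1 group tested for a single array far from the others, 9 had one, where chance gives about 1 in 20. The mean of the 26 canonical subunits was highest in UNC5 replicate 2, at 11.61 (others 11.55 to 11.57), and in robo/WT replicate 4, at 11.62 (others 11.52 to 11.53). The mean of the 13 paralogs was highest in UC replicate 1, at 8.633 (others 8.487 to 8.497), and in WT replicate 1, at 8.592 (others 8.367 to 8.418). Single genes stood low for Prosbeta7 in URyf.mef replicate 5, at 12.4, Prosalpha5 in UNC5 replicate 3, at 10.68, Rpn6 in WT replicate 1, at 10.79, and Prosbeta5R1 in slit/WT replicate 4, at 7.752. Prosbeta4R2 stood high in WT replicate 1, at 7.667.

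The change of a mutant against its /WT group was compared between slit, robo and comm, by a contrast of the 2 changes in limma adjusted over all probe sets. Between robo and slit 5 of the 39 members passed, beside 11% of all probe sets, and between comm and slit 5, beside 14.3%. Both counts are near the share of all probe sets. Between comm and robo 0 passed, beside 2.57% (lowest adjusted p = 0.255, with 3 members at an unadjusted p under 0.05). Compared with slit against slit/WT, the change in robo against robo/WT differed by -0.35 for Prosalpha4T2 (adjusted p = 0.0301), -0.36 for Rpn1 (0.00652), -0.268 for Rpn13 (0.0155), -0.373 for Rpt3R (0.0244) and -0.405 for Rpt5 (0.00217). The change in comm against comm/WT differed from that of slit by -0.392 for Prosalpha4T2 (adjusted p = 0.011), -0.33 for Prosbeta2R1 (0.015), 0.374 for Prosbeta5 (0.0296), -0.378 for Rpn1 (0.00324) and -0.514 for Rpt3R (0.000992).

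The probe set listed for both Prosalpha1 and Prosalpha1R, which stands for no member, was called higher than WT in 16 of 17 comparisons, from 0.241 in comm/WT to 0.948 in FRM. In UC and UR, where most canonical subunits fell, it rose by 0.515 and 0.609 (adjusted p = 4.48e-06 and 1.26e-07). In robo2 it was -0.191 (adjusted p = 0.114), and it was lower in robo2 than in robo, at -0.744 (adjusted p = 8.08e-09).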

How the results depend on the processing

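The medians in UC, robo2 and UR were negative in the main fit and under every alternative, and the counts were sensitive. The array SD moved the most results, and it separates some groups from WT; the cause was not tested. The replicate numbers, which do not pair arrays, changed few calls. With array weights, canonical subunits called were 4 lower in comm, 18 lower in robo against robo/WT, 12 lower in robo, 3 higher in robo12 against robo, 5 (2 higher, 3 lower) in robo2 against robo, 8 higher in slit.robo against robo, 5 (1 higher, 4 lower) in slit.robo against slit, 14 higher in UR2 against UR and 6 higher in URyf against UR. The median change of the canonical subunits was -0.177 in robo. Sums over comparisons were 36 canonical subunits called lower between related groups. With the array SD as a covariate, canonical subunits called were 8 (5 higher, 3 lower) in comm against comm/WT, 16 lower in comm, 14 lower in robo, 3 higher in robo12 against robo, 12 (1 higher, 11 lower) in robo2 against robo, 21 lower in slit, 13 (1 higher, 12 lower) in slit.robo against robo, 8 (1 higher, 7 lower) in slit.robo against slit, 24 lower in slit.robo, 21 lower in slit/WT, 3 higher in UC2x against UC, 17 lower in UNC5, 25 lower in UR, 9 higher in UR2 against UR, 19 lower in UR2, 21 higher in URyf against UR, 9 lower in URyf and 3 (1 higher, 2 lower) in URyf.mef against URyf. The median change of the canonical subunits was -0.172 in comm, -0.153 in comm/WT, -0.276 in FRM, -0.0947 in robo against robo/WT, -0.0993 in robo/WT, 0.0182 in slit against slit/WT, -0.257 in slit, -0.159 in slit.robo against robo, -0.352 in slit.robo, -0.24 in slit/WT, 0.0807 in UC2x against UC, -0.17 in UC2x, -0.214 in UNC5, -0.31 in UR, -0.192 in UR2, 0.266 in URyf against UR, -0.0339 in URyf.mef against URyf and -0.155 in URyf.mef. Counts over comparisons were 47 canonical subunits called lower between related groups, 11 paralogs called higher between related groups, 5 paralogs called lower between related groups, 7 canonical subunits called higher than WT, 286 canonical subunits called lower than WT, 22 paralogs called lower than WT and 8 paralogs called by the F test. Single genes changed sign, to -0.0194 for Prosalpha2 in slit/WT, -0.0136 for Prosalpha5 in UC2x, -0.00165 for Prosalpha5 in UNC5, -0.0101 for Prosalpha6 in UC2x, -0.0131 for Rpn13 in UC2x against UC, -0.241 for Rpn6 in slit/WT, -0.176 for Rpn6 in UC2x and -0.0215 for Rpt4 in URyf.mef. Without the arrays that stand apart, canonical subunits called were 10 (2 higher, 8 lower) in comm against comm/WT, 18 lower in robo against robo/WT, 13 lower in robo, 2 higher in robo12 against robo, 5 (2 higher, 3 lower) in robo2 against robo, 8 higher in slit.robo against robo, 4 (1 higher, 3 lower) in slit.robo against slit, 10 (1 higher, 9 lower) in slit.robo, 5 (3 higher, 2 lower) in UNC5 and 9 higher in UR2 against UR. The median change of the canonical subunits was -0.182 in robo. Sums over comparisons were 38 canonical subunits called lower between related groups. Without dim probe sets, canonical subunits called were 7 (2 higher, 5 lower) in comm against comm/WT. Counts over comparisons were 4 paralogs called higher between related groups, 4 paralogs called lower between related groups, 1 paralog called higher than WT, 14 paralogs called lower than WT and 2 paralogs called by the F test. With a fit to the compared groups alone, canonical subunits called were 0 in comm, 6 (2 higher, 4 lower) in comm/WT, 10 (2 higher, 8 lower) in FRM, 0 in robo, 3 (2 higher, 1 lower) in robo/WT, 3 lower in robo12, 1 higher in robo2 against robo, 3 lower in slit, 10 lower in UC, 5 (4 higher, 1 lower) in UNC5, 14 higher in UR2 against UR, 3 higher in UR2, 0 in URyf against UR and 0 in URyf. Sums over comparisons were 10 paralogs called higher between related groups, 32 canonical subunits called higher than WT, 60 canonical subunits called lower than WT and 0 paralogs called higher than WT.

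After quantile normalization, canonical subunits called were 6 lower in comm, 3 higher in robo12 against robo, 7 lower in robo2 against robo, 11 lower in slit, 4 (1 higher, 3 lower) in slit.robo against robo, 4 (1 higher, 3 lower) in slit.robo against slit, 15 (1 higher, 14 lower) in slit.robo, 9 lower in slit/WT, 14 (2 higher, 12 lower) in UNC5, 8 higher in UR2 against UR, 17 (4 higher, 13 lower) in UR2, 15 higher in URyf against UR and 7 lower in URyf. The median change of the canonical subunits was -0.108 in comm/WT, -0.039 in robo/WT, -0.145 in slit, -0.0802 in slit.robo against robo, -0.171 in slit.robo, -0.0713 in slit/WT, 0.243 in UC2x against UC, 0.00757 in UC2x and 0.127 in URyf.mef against URyf. Sums over comparisons were 31 canonical subunits called higher than WT and 189 canonical subunits called lower than WT. Single genes changed sign, to -0.0791 for Prosalpha2 in slit/WT and -0.0933 for Rpn13 in UC2x against UC. With the average of all other groups as the reference, canonical subunits called were 1 higher in comm, 7 (2 higher, 5 lower) in FRM, 15 (13 higher, 2 lower) in robo/WT, 3 (1 higher, 2 lower) in slit.robo, 9 higher in slit/WT, 22 (21 higher, 1 lower) in UC2x, 4 (3 higher, 1 lower) in UR2 and 9 (3 higher, 6 lower) in URyf. The median change of the canonical subunits was 0.209 in URyf.mef. Sums over comparisons with that reference, which leaves out WT, were 94 canonical subunits called higher, 40 paralogs called higher and 31 paralogs called lower. Single genes changed sign, to 0.0173 for Prosalpha4 in UNC5. With the replicate block, canonical subunits called were 2 higher in slit.robo against robo and 5 higher in URyf against UR. Sums over comparisons were 1 paralog called higher than WT. With all probe sets of a gene averaged, canonical subunits called were 2 (1 higher, 1 lower) in slit.robo against robo and 5 (2 higher, 3 lower) in slit/WT.

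Leaving out each array in turn, the canonical subunits called ran from 2 to 8 in comm against comm/WT, 0 to 3 in comm, 6 to 17 in robo against robo/WT, 1 to 9 in robo, 5 to 10 in robo/WT, 0 to 1 in robo12 against robo, 2 to 7 in robo12, 0 to 8 in robo2 against robo, 10 to 18 in robo2, 5 to 10 in slit, 1 to 2 in slit.robo against robo, 2 to 4 in slit.robo against slit, 5 to 10 in slit.robo, 2 to 5 in slit/WT, 4 to 10 in UNC5, 1 to 3 in UR2 against UR, 5 to 9 in UR2, 2 to 12 in URyf against UR and 1 to 11 in URyf. With the array SD as a covariate, the share of higher among all calls in URyf.mef against URyf went from 40.7% to 56.1%. In these array data, signal near background limits the dim paralogs, and the filter at the 40th percentile keeps 2 of the 13.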
